A study of Mus musculus with 24 samples.

Results

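The genes described here are 42 mouse genes whose transcription type I interferons are known to raise, chosen by symbol, and their mRNA was followed in hippocampal CA1 over the first 3 days after status epilepticus (SE). All 42 were found among the 18647 genes of the table and all 42 passed the filter on low counts that left 18153 genes. The 24 libraries were made from polyA RNA of CA1 microdissected from adult C57Bl/6N mice of at least 60 days. SE groups were taken 6, 12, 24, 36 or 72 h later and control (Ctr) groups at 12, 36 or 72 h. Each group had 3 libraries. SE was induced with 335 mg/kg pilocarpine hydrochloride, and the Ctr mice received saline in its place. The mice of all 8 groups had 1 mg/kg scopolamine methyl nitrate before and 4 mg/kg diazepam afterwards, in SE mice 40 min after SE onset, and of the mice given pilocarpine only those that developed SE were kept. The labels do not say whether each library is 1 mouse, so the p-values measure the spread between libraries. Because only mice with SE entered the SE groups, pilocarpine and seizures cannot be told apart.

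Type I interferons bind a receptor made of IFNAR1 and IFNAR2, whose kinases JAK1 and TYK2 phosphorylate STAT proteins. STAT2 and IRF9 are parts of the ISGF3 complex that then forms and binds the interferon-stimulated response element in promoters. The genes switched on in this way encode sensors of foreign nucleic acid, enzymes and binding proteins that block viral replication, the ubiquitin-like protein ISG15 and its machinery, and further STAT and IRF proteins. Many of them, the interferon-inducible GTPases and Irf1 in particular, also answer to interferon-gamma, and in the brain microglia, astrocytes and endothelial cells can all express them.

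Letters of the response element stood in the promoters of some of these genes. The pattern GAAA, any 2 bases, GAAA was searched on both strands, where it reads TTTC, any 2 bases, TTTC on the opposite one. It occurred within 250 bases upstream of the start of the canonical transcript in 14 of the 42 genes (33.3%), against 563 of the 18066 genes with an annotated start (3.12%). A second pattern, TTCNNNGAA, the core of a STAT site, whose matches can overlap those of the first, occurred in 8 of 42, against 6.58% of the 18066. To show these letters in place, windows of 30 bases on the gene's own strand of GRCm39 are printed for 11 of the 14 genes, with the matching letters in capitals; where a gene holds several overlapping or separate matches, 1 is shown.
Ifit1: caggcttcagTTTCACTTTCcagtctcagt
Ifit3: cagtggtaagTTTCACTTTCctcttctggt
Ifit3b: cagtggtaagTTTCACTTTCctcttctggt
Isg15: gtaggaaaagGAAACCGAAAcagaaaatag
Usp18: ggtgcctgagTTTCGCTTTCctttggatct
Oas2: cacacttgagTTTCGATTTCctaggttcct
Rsad2: ctggtccaacTTTCATTTTCagaaaacaga
Zbp1: cccaccccgaTTTCAATTTCgatttcgaca
Bst2: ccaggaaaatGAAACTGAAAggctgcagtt
Stat2: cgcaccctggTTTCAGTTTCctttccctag
Irgm1: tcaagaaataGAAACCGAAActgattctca

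The windows of Ifit1 at chr19:34618175-34618204 (+ strand), Ifit3 at chr19:34560763-34560792 (+ strand) and Ifit3b at chr19:34585159-34585188 (+ strand) lie within the Ifit gene cluster, and those of Ifit3 and Ifit3b are identical over all 30 bases. The motif began 86, 126 and 159 bases before the transcript start of these 3 genes. Isg15 has it at chr4:156285328-156285357 (- strand), 44 bases before the start. The windows of Usp18 at chr6:121222772-121222801 (+ strand), Oas2 at chr5:120887970-120887999 (- strand), Rsad2 at chr12:26506552-26506581 (- strand) and Zbp1 at chr2:173060796-173060825 (- strand) start 75, 56, 120 and 91 bases before theirs, counted to the motif. Bst2 carries it at chr8:71990221-71990250 (- strand), Stat2 at chr10:128106135-128106164 (+ strand) and Irgm1 at chr11:48762252-48762281 (- strand), with 126, 207 and 24 bases to the start. The other carriers were Trim30a, Ifi27 and Rtp4. Among the genes themselves, those of the Ifit family span chr19:34527932-34632174, Gbp7, Gbp3 and Gbp2 chr3:142236044-142343779, Irf7 chr7:140842619-140846398 and Mx1 chr16:97248235-97264107, while Rsad2 at chr12:26492745-26506451 and Cmpk2 at chr12:26519203-26529836 are neighbours on opposite strands. These matches describe letters in a window, and no binding was measured.

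Library totals ranged from 2663936 to 30133731 counts (median 13521590), so genes of a few CPM (counts scaled to the library size) are less precise in the smallest library, Ctr 72 h replicate 3, where 7 of the 42 genes had 0 counts. No 2 libraries of the same group agreed within counting noise. Library Ctr 72 h replicate 2 stood apart in the factor of unwanted variation that entered the fit (-0.80, others -0.15 to 0.38). Its summed level of 7 peripheral sensory neuron genes was 1396 CPM. These genes were also high in SE 72 h replicates 1 (761 CPM) and 2 (410), SE 36 h replicate 3 (673), SE 12 h replicate 1 (513) and SE 6 h replicate 3 (260). In the remaining libraries their sum was 5.90 to 61.9 CPM. Ctr 72 h replicate 2 lay above every other Ctr library in 19 of the 42 genes, where 26.1% of all genes did so. Neuronal and CA1 pyramidal cell markers were present in all libraries. The CA1 pyramidal markers were lowest in SE 72 h replicate 1, with a sum of 293.2 CPM against 703.8 to 1407 in the Ctr libraries. Dentate granule cell markers were highest in that library, at 229.5 CPM against 3.24 to 88.66 in the Ctr libraries. They reached 87.87 and 92.17 CPM in SE 12 h replicates 1 and 3, and 76.03 and 90.33 in SE 36 h replicates 1 and 2. What such differences in dissected tissue add to the values of the 42 genes was not tested.

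A minority of the interferon response genes passed the test for an increase in the first 12 h after SE, and nearly all of them did from 24 to 72 h. A gene was called where its adjusted p was at most 0.05 and its log2 fold change (log2FC) at least 0.66 in size, with edgeR's quasi-likelihood test on all genes. At 6 h, against the mean of the 3 Ctr groups, 11 genes were higher and 2 lower (over all genes tested 15.8% were higher and 6.21% lower). At 12 h, against Ctr 12 h, 15 were higher and 1 lower (13.9% and 11.4% over all genes), and at 24 h, against the mean of the 3 Ctr groups, 38 were called, all of them higher (24.2% of all genes were called in either direction). At 36 h, against Ctr 36 h, 40 of 42 were higher and 0 lower (12.7% and 8.92% over all genes). At 72 h, against Ctr 72 h, these counts were again 40 and 0 (15.3% and 4.21% over all genes).

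The median log2FC of the 42 genes was 0.53, 0.90, 1.75, 2.47 and 2.58 from the first to the last time. Over all genes the median lay between 0.00 and 0.10 at these times. The sign was positive in 35, 39, 41, 42 and 42 of the genes, in the same order. Every SE library lay above every Ctr library of its time in 27 genes at 12 h, 37 at 36 h and 39 at 72 h, where 24.5%, 25.8% and 19.4% of all genes did so. In mean CPM 35 of the 42 genes were highest at 72 h, 6 at 36 h and 1, Gbp2, at 6 h. Because tissue was sequenced in bulk, a change in the number of cells of a type cannot be told apart from a change in RNA per cell. When a factor for 3 ranges of label numbers replaced the factor of unwanted variation in the fit, 8 genes were called at 6 h and 19 at 72 h. No label range held both SE and Ctr libraries of 72 h, and all 3 SE 24 h libraries lay in the range of 92 to 104, which held no Ctr library. With counts thinned to the smallest library, 10 were called at 12 h.

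**Figure D1:**
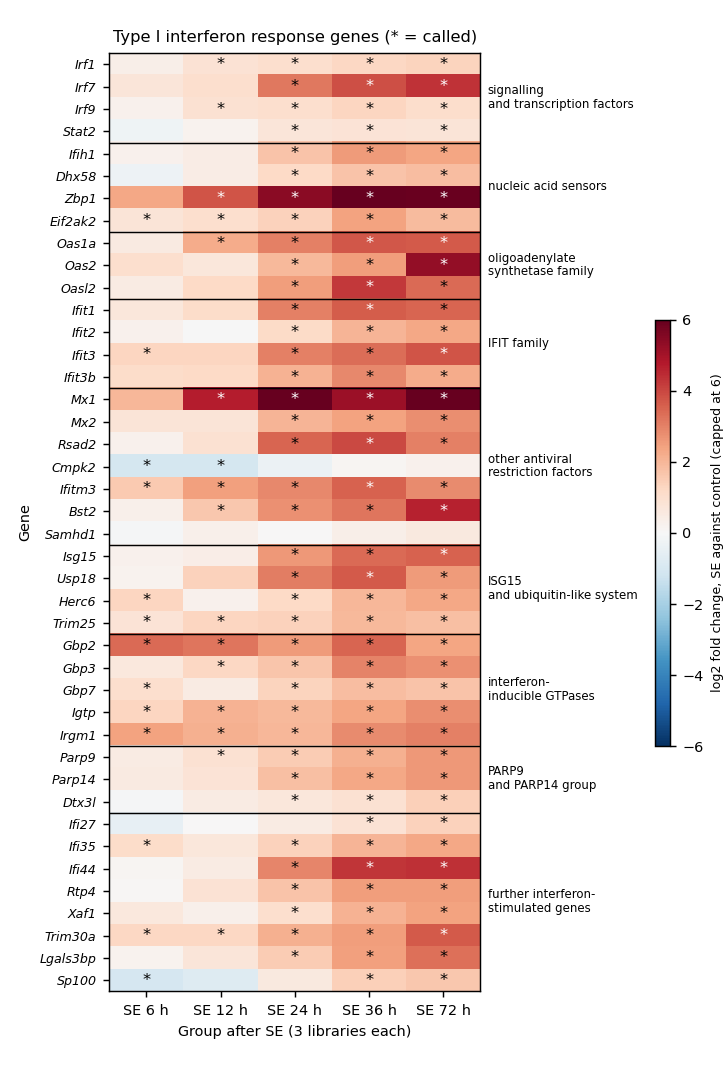
Log2 fold change of the 42 interferon response genes (rows, grouped by role) at the 5 times after SE (columns), 6 and 24 h against the mean of the 3 Ctr groups and 12, 36 and 72 h against their own Ctr group, with an asterisk where the gene was called and the colour capped at 6. The marks are sparse at 6 and 12 h and fill 38, 40 and 40 of the 42 rows in the last 3 columns.

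The 4 signalling proteins and transcription factors Irf1, Irf7, Irf9 and Stat2 were higher in 0, 2, 4, 4 and 4 genes at the 5 times. Irf7, the factor that amplifies the interferon response, had the largest log2FC of the 4 from 24 h on. In the 9 Ctr libraries the lowest, median and highest level was 0.171, 1.43 and 3.97 CPM. After SE it was 2.48, 2.45 and 2.76 (6 h) and 2.09, 3.48 and 4.06 (12 h). Later, Irf7 measured 21.4, 4.36 and 16.5 (24 h), 43.6, 8.43 and 22.96 (36 h) and 29.6, 40.8 and 14.7 (72 h). The libraries at 6 and 12 h overlapped the Ctr range, and all 9 libraries from 24 h on lay above its top. For Irf7 the log2FC was 1.02 ± 0.61 (adjusted p = 0.201) at 12 h, 3.17 ± 0.45 (adjusted p = 1.18e-05) at 24 h, 3.87 ± 0.62 (adjusted p = 7.31e-05) at 36 h and 4.33 ± 0.71 (adjusted p = 0.000124) at 72 h.

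Irf9, the DNA-binding subunit of ISGF3, was already higher at 12 h. Its Ctr libraries had 13.5, 18.4 and 24.4 CPM as lowest, median and highest level, and the SE libraries 23.6, 19.4 and 21.8 (6 h) and 25.2, 31.5 and 31.1 (12 h). Later, Irf9 measured 42.8, 28.7 and 37.1 (24 h), 54.2, 31.2 and 46.4 (36 h) and 42.8, 54.6 and 37.03 (72 h). All libraries from 12 h on were above every Ctr library. For Irf9 the log2FC was 0.93 ± 0.20 (adjusted p = 0.00105) at 12 h, 1.30 ± 0.20 (adjusted p = 4.55e-05) at 36 h and 1.04 ± 0.20 (adjusted p = 0.000696) at 72 h.

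Irf1, a factor shared with the interferon-gamma response, took a similar course. The Ctr range was 3.81, 5.49 and 8.36 CPM (lowest, median, highest), and the SE libraries gave 6.31, 6.56 and 8.75 (6 h) and 14.2, 7.89 and 9.002 (12 h). Later, Irf1 measured 11.04, 8.54 and 14.9 (24 h), 11.2, 12.2 and 12.1 (36 h) and 18.6, 12.5 and 17.4 (72 h). The 6 h and 12 h libraries reached into this range, and those of 24, 36 and 72 h lay above it. For Irf1 the log2FC was 0.89 ± 0.25 (adjusted p = 0.00876) at 12 h, 1.26 ± 0.26 (adjusted p = 0.000798) at 36 h and 1.35 ± 0.27 (adjusted p = 0.000797) at 72 h. Without SE 12 h replicate 1, its highest library of that time, the 12 h value was 0.60 (adjusted p = 0.0801). On the other strand 46.0% of its exon bases overlap other annotated genes, and the counting did not use strand, so its counts are uncertain in that part.

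Stat2, the STAT protein particular to type I and III interferon signalling, had the smallest log2FC of the 4 from 24 h on. It stood at 37.6, 42.01 and 50.99 CPM in the Ctr libraries (lowest, median, highest) and, after SE, at 37.8, 31.4 and 38.05 (6 h) and 53.3, 41.8 and 45.8 (12 h). Later, Stat2 measured 85.6, 52.9 and 75.2 (24 h), 100, 53.8 and 63.8 (36 h) and 78.6, 98.8 and 58.6 (72 h). The increase passed the test at 24 h with 0.74 ± 0.16 (adjusted p = 0.00134), at 36 h with 0.80 ± 0.21 (adjusted p = 0.00605) and at 72 h with 0.76 ± 0.21 (adjusted p = 0.0121). It did not hold without SE 36 h replicate 1 (0.50, adjusted p = 0.0657), nor at 72 h without SE 72 h replicate 2 (0.56, adjusted p = 0.0741) or Ctr 72 h replicate 1 (0.67, adjusted p = 0.0534), and without SE 24 h replicate 1 the 24 h value of 0.58 fell short of the fold threshold.

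The sensors of nucleic acid, Ifih1 (MDA5), Dhx58 (LGP2), Zbp1 and Eif2ak2 (PKR), were higher in 1 of 4 genes at 6 h, in 2 at 12 h and in all 4 at 24, 36 and 72 h. Zbp1, a sensor of Z-form nucleic acid that can start necroptosis, was close to absent in controls: the 9 Ctr libraries had a median of 0 and a highest level of 0.253 CPM. After SE it was 0.3995, 0.294 and 0.297 (6 h) and 0.199, 1.33 and 0.239 (12 h). Later, Zbp1 measured 5.42, 0.566 and 2.87 (24 h), 6.96, 2.29 and 5.64 (36 h) and 9.29, 9.35 and 4.24 (72 h). All SE libraries at 6, 24, 36 and 72 h were above the Ctr range of all times, and at 12 h only replicate 2 was, although all 3 exceeded Ctr 12 h.

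Because so few Zbp1 counts stood in the Ctr libraries, its change is given as a ratio of summed CPM-scaled counts with a 95% interval for counting error. It was 19.03 (4.98 to 162) at 12 h from 47 counts against 2, 115 (31.4 to 954) at 36 h from 222 against 2 and 48.5 (16.5 to 236) at 72 h from 342 against 3. The test gave adjusted p = 0.0156, 8.64e-05 and 0.000392, and the 12 h call was lost without SE 12 h replicate 2 (log2FC 2.27, adjusted p = 0.1995) or Ctr 12 h replicate 2 (3.39, adjusted p = 0.0512).

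Ifih1, which detects long double-stranded RNA, had Ctr levels of 2.04, 2.71 and 5.88 CPM (lowest, median, highest). In the SE groups it measured 3.92, 3.33 and 3.65 (6 h) and 6.41, 5.27 and 4.14 (12 h). Later, Ifih1 measured 14.7, 5.31 and 10.2 (24 h), 21.5, 7.64 and 13.3 (36 h) and 17.4, 18.6 and 12.9 (72 h). The first groups wholly above the controls were those of 36 and 72 h. For Ifih1 the log2FC was 0.46 ± 0.38 (adjusted p = 0.354) at 12 h, 1.69 ± 0.29 (adjusted p = 0.000131) at 24 h, 2.57 ± 0.40 (adjusted p = 5.23e-05) at 36 h and 2.36 ± 0.42 (adjusted p = 0.000310) at 72 h. Eif2ak2, the kinase that halts translation when it binds double-stranded RNA, was higher at all 5 times, with log2FC from 0.76 at 6 h to 2.42 at 36 h, and Dhx58, a regulator of the RNA sensors, from 24 h on, with 1.19 to 1.85. The call of Eif2ak2 at 6 h was lost without SE 6 h replicate 2 (0.68, adjusted p = 0.105), SE 6 h replicate 3 (0.68, adjusted p = 0.111) or Ctr 72 h replicate 3 (0.64, adjusted p = 0.0504), and that at 12 h without Ctr 12 h replicate 1 (0.96, adjusted p = 0.0599) or SE 12 h replicate 1 (0.95, adjusted p = 0.0515). Dhx58 lost its 24 h call without SE 24 h replicate 1 (0.79, adjusted p = 0.105) and its 72 h call without Ctr 72 h replicate 1 (1.06, adjusted p = 0.0959).

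The oligoadenylate synthetase family makes the second messenger that activates RNase L. Its members Oas1a, Oas2 and Oasl2 were higher in 0, 1, 3, 3 and 3 of 3 genes at the 5 times. Oas2 had 0, 0.626 and 2.01 CPM in the Ctr libraries (lowest, median, highest) and, after SE, 1.36, 0.686 and 1.02 (6 h) and 0.547, 1.49 and 0.558 (12 h). Later, Oas2 measured 3.19, 1.04 and 1.96 (24 h), 12.9, 2.13 and 3.48 (36 h) and 8.52, 15.4 and 5.99 (72 h). Its 6 and 12 h libraries lay inside the Ctr range, and those of 36 and 72 h above it. For Oas2 the log2FC was 2.49 ± 0.71 (adjusted p = 0.0109) at 36 h and 5.28 ± 1.02 (adjusted p = 0.000627) at 72 h, and the 36 h call was lost without SE 36 h replicate 1 (1.52, adjusted p = 0.134), Ctr 36 h replicate 2 (2.21, adjusted p = 0.0593) or Ctr 36 h replicate 3 (2.18, adjusted p = 0.0566).

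Oasl2 is the family's ubiquitin-like member. Its Ctr libraries gave 1.93, 3.21 and 20.3 CPM (lowest, median, highest), the highest being Ctr 72 h replicate 2, and its SE libraries 5.83, 2.55 and 6.45 (6 h) and 9.94, 4.84 and 6.61 (12 h). Later, Oasl2 measured 35.6, 7.66 and 18.8 (24 h), 84.6, 11.8 and 47.01 (36 h) and 67.8, 97.5 and 26.02 (72 h). Only at 72 h did all 3 SE libraries exceed every Ctr library, while those at 36 h exceeded their own Ctr group. For Oasl2 the log2FC was 1.20 ± 0.61 (adjusted p = 0.128) at 12 h, 4.25 ± 0.65 (adjusted p = 4.55e-05) at 36 h and 3.42 ± 0.65 (adjusted p = 0.000568) at 72 h.

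Oas1a is known with less certainty, since 40.3% of its 100-base stretches recur in other genes, above all Oas1g. Ctr libraries had 0, 0.189 and 1.36 CPM (lowest, median, highest) and SE libraries 0.479, 0.588 and 0.212 (6 h) and 0.199, 0.961 and 0.478 (12 h). Later, Oas1a measured 2.87, 1.39 and 2.59 (24 h), 5.63, 1.34 and 3.42 (36 h) and 7.81, 12.3 and 6.04 (72 h). The 12 h libraries lay within the Ctr range of all times but above Ctr 12 h, with a ratio of summed counts of 5.27 (95% interval 2.21 to 15.2). Its call at 12 h (adjusted p = 0.0441) was lost in 5 of 6 fits that left out 1 of these 6 libraries, with adjusted p between 0.0597 and 0.287.

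The IFIT proteins bind foreign or uncapped RNA and block its translation. Of Ifit1, Ifit2, Ifit3 and Ifit3b, neighbours on chromosome 19, 1 was higher at 6 h, 0 at 12 h and all 4 at 24, 36 and 72 h. Ifit3 had 2.73, 4.23 and 6.16 CPM in the Ctr libraries (lowest, median, highest) and, after SE, 10.2, 9.698 and 11.5 (6 h) and 12.2, 9.94 and 11.2 (12 h). Later, Ifit3 measured 54.05, 8.49 and 43.7 (24 h), 99.2, 23.7 and 41.5 (36 h) and 55.1, 57.04 and 25.4 (72 h). All 15 SE libraries stood above every Ctr library, with SE 24 h replicate 2 the lowest of them. For Ifit3 the log2FC was 1.27 ± 0.42 (adjusted p = 0.0197) at 6 h, 1.29 ± 0.52 (adjusted p = 0.0579) at 12 h, 3.02 ± 0.39 (adjusted p = 3.64e-06) at 24 h, 3.33 ± 0.54 (adjusted p = 8.14e-05) at 36 h and 3.79 ± 0.61 (adjusted p = 9.70e-05) at 72 h. The 6 h call was lost without SE 6 h replicate 3 (1.19, adjusted p = 0.0762).

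Ifit2 was first called at 24 h. The Ctr libraries gave 5.64, 8.06 and 12.8 CPM (lowest, median, highest), and the SE libraries 10.4, 9.01 and 10.1 (6 h) and 11.5, 6.36 and 6.77 (12 h). Later, Ifit2 measured 24.1, 11.6 and 19.4 (24 h), 51.6, 18.1 and 33.5 (36 h) and 51.3, 43.5 and 29.5 (72 h). Both early groups and SE 24 h replicate 2 lay within the Ctr range, and all libraries at 36 and 72 h above it. For Ifit2 the log2FC was -0.02 ± 0.33 at 12 h, 1.13 ± 0.26 (adjusted p = 0.00144) at 24 h, 2.05 ± 0.33 (adjusted p = 8.35e-05) at 36 h and 2.31 ± 0.35 (adjusted p = 5.66e-05) at 72 h. Ifit1 reached 3.64 at 36 h and Ifit3b 2.87. Ifit3 and Ifit3b share 26.6% and 27.2% of their 100-base stretches with other genes, mostly with each other, so the counts of these genes are uncertain in those stretches.

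Further antiviral effectors were Mx1, Mx2, Rsad2, Cmpk2, Ifitm3, Bst2 and Samhd1, of which 1, 3, 5, 5 and 5 of 7 were higher at the 5 times. Mx1, a dynamin-like GTPase that blocks influenza virus, was close to 0 in controls, where the lowest, median and highest level was 0, 0.0387 and 0.164 CPM. After SE it had 0, 0.196 and 0.382 (6 h) and 0.199, 1.16 and 0.797 (12 h). Later, Mx1 measured 4.35, 0.523 and 6.73 (24 h), 9.34, 1.42 and 3.99 (36 h) and 11.7, 8.203 and 5.89 (72 h). All SE libraries from 12 h on were above every Ctr library. The ratio of summed counts was 39.7 (95% interval 6.80 to 1599, 49 counts against 1) at 12 h, 36.9 (16.7 to 102, 214 against 6) at 36 h and 172 (30.8 to 6821, 405 against 1) at 72 h. The test gave adjusted p = 0.0116, 0.000494 and 0.000341, and at 12 h the call was lost without SE 12 h replicate 2 (log2FC 4.05, adjusted p = 0.0544).

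Rsad2, viperin, makes a nucleotide that ends viral RNA chains. Its Ctr libraries had 0.4697, 1.18 and 2.39 CPM (lowest, median, highest), and its SE libraries 0.959, 0.588 and 2.38 (6 h) and 1.49, 2.55 and 2.55 (12 h). Later, Rsad2 measured 18.2, 2.61 and 19.3 (24 h), 26.1, 4.49 and 12.7 (36 h) and 21.6, 9.54 and 6.92 (72 h). The step came between 12 and 24 h, although SE 24 h replicate 2 was at the level of the 12 h libraries. For Rsad2 the log2FC was 0.93 ± 0.72 (adjusted p = 0.327) at 12 h, 3.47 ± 0.51 (adjusted p = 1.95e-05) at 24 h, 3.96 ± 0.75 (adjusted p = 0.000409) at 36 h and 3.03 ± 0.77 (adjusted p = 0.00598) at 72 h.

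Cmpk2, the mitochondrial nucleotide kinase encoded next to Rsad2, was lower at the early times. In Ctr libraries it had 13.5, 20.6 and 26.1 CPM (lowest, median, highest), and after SE 13.7, 6.56 and 8.32 (6 h) and 8.75, 14.6 and 5.58 (12 h). Later, Cmpk2 measured 17.3, 16.7 and 11.8 (24 h), 30.5, 14.3 and 20.00 (36 h) and 29.8, 22.99 and 15.2 (72 h). The 12 h libraries overlapped the Ctr range only in replicate 2, and those of 36 and 72 h lay on both sides of its median. It was lower at 6 h with -1.05 ± 0.30 (adjusted p = 0.00836) and at 12 h with -1.07 ± 0.34 (adjusted p = 0.0168), and at 36 and 72 h its log2FC was 0.13 ± 0.33 and 0.26 ± 0.35. The 6 h call was lost without SE 6 h replicate 2 (-0.85, adjusted p = 0.066), and the 12 h call in 4 of 6 fits without 1 library, with values from -1.01 to -0.80 and adjusted p between 0.0508 and 0.0948. Samhd1, a deoxynucleotide hydrolase that limits retroviruses, was the other gene never called higher, with log2FC from -0.08 at 6 h to 0.58 at 72 h.

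Ifitm3, a membrane protein that stops viruses from entering cells, was raised from the first time on. Its lowest, median and highest Ctr level was 3.94, 5.84 and 12.8 CPM, and its SE libraries measured 24.2, 15.8 and 16.3 (6 h) and 18.8, 31.5 and 31.9 (12 h). Later, Ifitm3 measured 58.6, 41.4 and 41.1 (24 h), 72.3, 39.4 and 60.2 (36 h) and 76.1, 85.2 and 64.8 (72 h). All 15 SE libraries lay above every Ctr library. For Ifitm3 the log2FC was 1.56 ± 0.22 (adjusted p = 1.42e-05) at 6 h, 2.46 ± 0.29 (adjusted p = 2.79e-06) at 12 h, 3.56 ± 0.30 (adjusted p = 3.24e-08) at 36 h and 2.83 ± 0.30 (adjusted p = 6.41e-07) at 72 h. Of its 100-base stretches 58.0% recur in another annotated gene on the opposite strand, so these counts are uncertain.

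Bst2, tetherin, holds budding virus particles on the cell surface. The Ctr libraries showed 0.682, 2.02 and 3.13 CPM (lowest, median, highest), the SE libraries 2.88, 1.96 and 2.21 (6 h) and 6.26, 6.89 and 5.099 (12 h). Later, Bst2 measured 21.1, 5.88 and 12.8 (24 h), 37.4, 11.8 and 25.4 (36 h) and 34.9, 42.5 and 22.9 (72 h). Libraries at 6 h were inside the Ctr range and all later ones above it. For Bst2 the log2FC was 1.63 ± 0.44 (adjusted p = 0.0060) at 12 h, 3.23 ± 0.44 (adjusted p = 1.19e-05) at 36 h and 4.61 ± 0.52 (adjusted p = 1.63e-06) at 72 h. Mx2 was called from 24 h on, with 2.06 to 2.77.

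**Figure D2:**
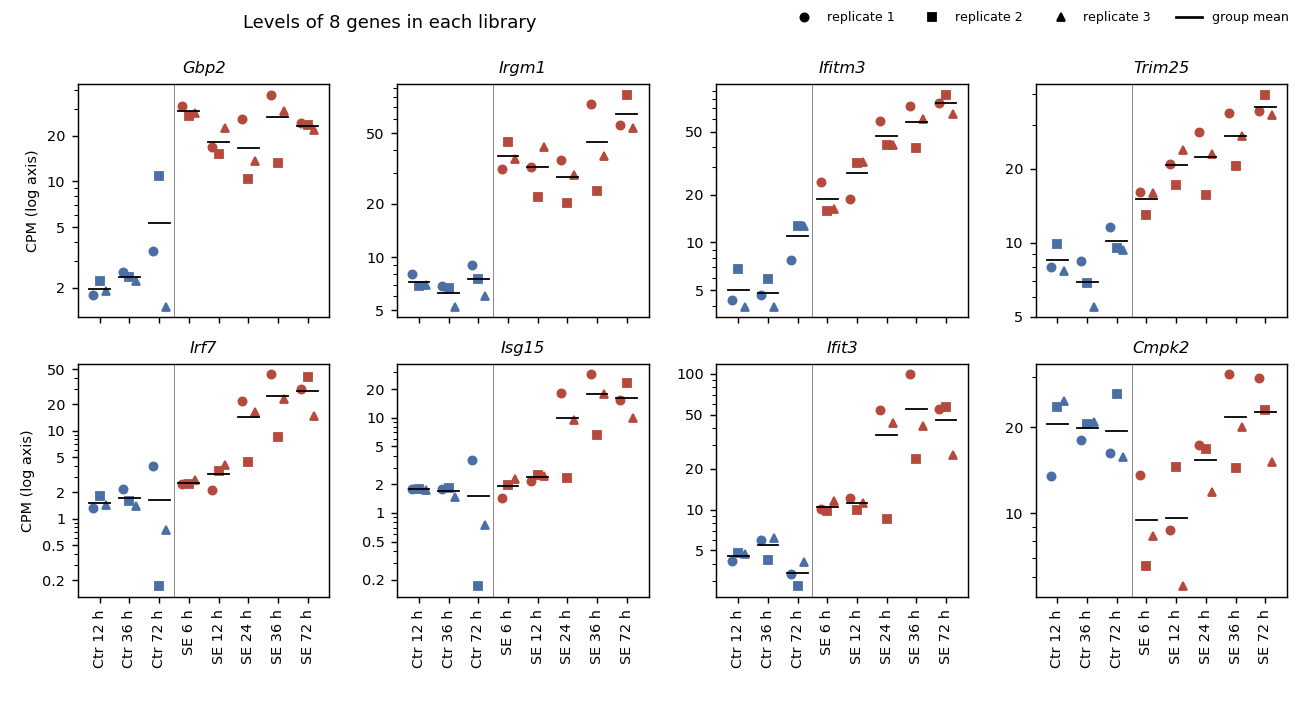
Level in CPM (log axis) of Gbp2, Irgm1, Ifitm3, Trim25, Irf7, Isg15, Ifit3 and Cmpk2 in each of the 24 libraries, with the 8 groups along the x axis, a marker shape per replicate number and a bar at the group mean. Gbp2 and Ifitm3 were above the Ctr median in every SE library, Irf7 and Isg15 separated at 36 and 72 h, and Cmpk2 dipped at 6 and 12 h.

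Isg15 is a ubiquitin-like protein that is attached to other proteins, in mice through Herc6 and Trim25 among other ligases, and removed by Usp18, which also dampens the receptor. Of these 4 genes 2, 1, 4, 4 and 4 were higher at the 5 times. Isg15 had 0.171, 1.797 and 3.63 CPM in the Ctr libraries (lowest, median, highest) and, after SE, 1.44, 1.96 and 2.29 (6 h) and 2.19, 2.49 and 2.47 (12 h). Later, Isg15 measured 18.3, 2.31 and 9.53 (24 h), 28.5, 6.54 and 17.9 (36 h) and 15.5, 23.3 and 10.04 (72 h). All libraries of 36 and 72 h lay above every Ctr library, while SE 24 h replicate 2 did not. For Isg15 the log2FC was 0.41 ± 0.61 (adjusted p = 0.628) at 12 h, 2.61 ± 0.46 (adjusted p = 0.000134) at 24 h, 3.38 ± 0.62 (adjusted p = 0.000291) at 36 h and 3.56 ± 0.71 (adjusted p = 0.000800) at 72 h. It shares 21.2% of its 100-base stretches with other genes.

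Herc6 was already higher at 6 h, though 20.5% of its 100-base stretches recur in other genes, above all Gm45193. The Ctr libraries gave 2.39, 2.88 and 5.46 CPM (lowest, median, highest), the SE libraries 9.83, 5.97 and 8.32 (6 h) and 4.67, 4.38 and 5.02 (12 h). Later, Herc6 measured 9.77, 6.45 and 6.31 (24 h), 14.7, 7.17 and 15.04 (36 h) and 13.7, 18.03 and 12.3 (72 h). All 3 libraries at 6 h and all from 24 h on were above every Ctr library, while those at 12 h were not. For Herc6 the log2FC was 1.30 ± 0.24 (adjusted p = 0.000252) at 6 h, 0.25 ± 0.30 (adjusted p = 0.539) at 12 h, 2.00 ± 0.31 (adjusted p = 5.23e-05) at 36 h and 2.31 ± 0.33 (adjusted p = 3.07e-05) at 72 h, and the fit of SE 12 h against SE 6 h called 0 of the 42 genes. Trim25, which also ubiquitinates the RNA sensor RIG-I, was called at all 5 times with 0.82 to 1.96. Usp18 was called from 24 h on, with its highest log2FC of 3.69 at 36 h, and its call at 72 h (2.56) was lost without Ctr 72 h replicate 1 (2.13, adjusted p = 0.113), Ctr 72 h replicate 2 (2.75, adjusted p = 0.057) or SE 72 h replicate 1 (2.41, adjusted p = 0.0588).

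The interferon-inducible GTPases, which coat the vacuoles of intracellular microbes, were higher in 4, 4, 5, 5 and 5 of 5 genes (Gbp2, Gbp3, Gbp7, Igtp and Irgm1) at the 5 times. Gbp2 had 1.5, 2.22 and 10.9 CPM in the Ctr libraries (lowest, median, highest; the highest was Ctr 72 h replicate 2) and, after SE, 31.2, 27.04 and 28.2 (6 h) and 16.9, 15.02 and 22.3 (12 h). Later, Gbp2 measured 25.6, 10.4 and 13.5 (24 h), 37.05, 13.2 and 28.9 (36 h) and 24.02, 23.5 and 21.9 (72 h). Its 3 libraries at 6 h were above all those at 12 h, and all SE libraries but SE 24 h replicate 2 were above every Ctr library. For Gbp2 the log2FC was 3.38 ± 0.25 (adjusted p = 5.76e-09) at 6 h, 3.20 ± 0.37 (adjusted p = 1.94e-06) at 12 h, 2.56 ± 0.26 (adjusted p = 1.65e-07) at 24 h, 3.47 ± 0.36 (adjusted p = 5.35e-07) at 36 h and 2.36 ± 0.37 (adjusted p = 7.75e-05) at 72 h. Irgm1 and Igtp, of the immunity-related family, were called at all 5 times with 1.98 to 3.03 and 1.31 to 2.77. Gbp3 and Gbp7, which lie beside Gbp2 on chromosome 3, ranged from 0.64 to 2.97 and from 0.47 to 1.87. The call of Gbp3 at 12 h was lost in 4 of the 6 fits that left out a library of that time, with adjusted p from 0.0562 to 0.104.

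The mono-ADP-ribosyltransferases Parp9 and Parp14 and the E3 ligase Dtx3l, the partner of Parp9, were higher in 0, 1, 3, 3 and 3 of 3 genes. The log2FC at 72 h was 2.61 ± 0.35 (adjusted p = 1.22e-05) for Parp9, 2.60 ± 0.39 (adjusted p = 4.69e-05) for Parp14 and 1.41 ± 0.35 (adjusted p = 0.00476) for Dtx3l. The 72 h call of Dtx3l was lost without Ctr 72 h replicate 1 (adjusted p = 0.0845) or replicate 3 (0.95, adjusted p = 0.0759), its 36 h call in 3 fits that left out 1 library and its 24 h call in 8, and Parp9 lost its 12 h call in 5 such fits (adjusted p from 0.0505 to 0.0864). The remaining genes were Ifi27, Ifi35, Ifi44, Rtp4, Xaf1, Trim30a, Lgals3bp and Sp100, with 2, 1, 6, 8 and 8 of 8 higher. Trim30a, a tripartite motif protein, was called at all 5 times with 1.25 to 3.66. Sp100, a nuclear body protein, was lower at 6 h with -1.0 ± 0.40 (adjusted p = 0.0499) and higher at 36 h with 1.44 ± 0.44 (adjusted p = 0.0164) and at 72 h with 1.62 ± 0.45 (adjusted p = 0.0106). Its 6 h call was lost in 8 of 12 fits that left out 1 library, its 36 h call without SE 36 h replicate 1 (0.90, adjusted p = 0.138) or Ctr 36 h replicate 3 (1.22, adjusted p = 0.0798), and its 72 h call without Ctr 72 h replicate 3 (1.35, adjusted p = 0.0546).

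Ifi44, a cytoplasmic protein that restrains the interferon response, had 0, 0.4697 and 1.01 CPM in Ctr libraries (lowest, median, highest) and, after SE, 0.3196, 0.784 and 0.637 (6 h) and 1.09, 1.06 and 0.797 (12 h). Later, Ifi44 measured 9.88, 1.35 and 1.82 (24 h), 21.4, 2.13 and 9.74 (36 h) and 7.04, 14.3 and 3.51 (72 h). Single libraries of a group differed widely, with replicate 1 the highest and replicate 2 the lowest at both 24 and 36 h. For Ifi44 the log2FC was 0.51 ± 0.86 (adjusted p = 0.674) at 12 h, 2.95 ± 0.65 (adjusted p = 0.00124) at 24 h, 4.30 ± 0.88 (adjusted p = 0.000835) at 36 h and 4.39 ± 1.05 (adjusted p = 0.00375) at 72 h, and without SE 24 h replicate 1 the 24 h value was 1.54 (adjusted p = 0.089).

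Lgals3bp, a secreted glycoprotein that binds galectin-3, went on rising to 72 h. Ctr libraries had 11.2, 12.7 and 38.03 CPM (lowest, median, highest; the highest was Ctr 72 h replicate 2) and SE libraries 19.02, 13.3 and 17.8 (6 h) and 24.5, 22.7 and 18.9 (12 h). Later, Lgals3bp measured 66.8, 26.7 and 35.6 (24 h), 100, 39.7 and 77.4 (36 h) and 179.8, 198 and 145 (72 h). All libraries at 72 h were above all at 36 h. For Lgals3bp the log2FC was 0.71 ± 0.29 (adjusted p = 0.0607) at 12 h, 1.54 ± 0.22 (adjusted p = 1.61e-05) at 24 h, 2.45 ± 0.30 (adjusted p = 3.61e-06) at 36 h and 3.30 ± 0.32 (adjusted p = 2.06e-07) at 72 h. Against SE 36 h, SE 72 h was higher by 1.26 ± 0.28 (adjusted p = 0.00744), the only one of the 42 genes called in that comparison (3.12% of all genes were higher). Without SE 36 h replicate 2 the value was 0.95 (adjusted p = 0.0626), while 6 genes were called when replicate 1 of that group was left out.

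Compared per kilobase of exon (RPKM), the most abundant of the 42 in the Ctr libraries were Ifi27 with a mean of 8.25, Stat2 with 6.79 and Ifitm3 with 5.44. At 72 h after SE the order was led by Ifitm3 with 58.8, Lgals3bp with 33.1, Bst2 with 27.5, Ifi27 with 21.5 and Isg15 with 20.8. The lowest means at 72 h were those of Oas1a with 1.09 and Ifi44 with 1.35. The length used was that of all annotated exon bases of a gene, which can exceed its canonical transcript. It was 7989 against 1911 bases for Oas1a, 5260 against 2330 for Lgals3bp and 1281 against 1277 for Ifitm3. The order therefore depends on the length used and was not computed with canonical lengths.

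Between consecutive SE times, where a log2FC of at least 1 was required, the step from 12 to 24 h called 5 genes, all of them higher (1.49% of all genes were). They were Rsad2 with 2.56 ± 0.67 (adjusted p = 0.0231), Irf7 with 2.18 ± 0.57 (adjusted p = 0.022), Isg15 with 2.05 ± 0.58 (adjusted p = 0.0342), Ifit3 with 1.66 ± 0.50 (adjusted p = 0.0423) and Ifit2 with 1.16 ± 0.33 (adjusted p = 0.0321). The median of the 42 genes for this step was 0.91. This count was 16 when SE 24 h replicate 2 was left out and 0 when replicate 1 of that group was. It was 1 when either SE 24 h replicate 3 or SE 12 h replicate 1 was missing, and 2 with SE 12 h replicate 2 or replicate 3 removed. From 6 to 12 h and from 24 to 36 h 0 genes were called by edgeR (1.36% and 0.523% of all genes), with medians of 0.33 and 0.56. At an unadjusted p under 0.05 there were 5 and 12 of the 42, beside 3728 and 3017 of all 18153 genes, DESeq2 called 1 and 0, and limma-voom 0 and 0.

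At 24, 36 and 72 h most of these genes shared the library in which they were lowest. SE 24 h replicate 2 was the lowest of its 3 libraries in 39 of 42 genes (31.7% of all genes), and SE 36 h replicate 2 in 40 of 42 (33.6%), while replicate 1 was the highest in 36 and 39. SE 72 h replicate 3 was the lowest in 35 (29.6%). As the median log2 ratio of the 42 genes to the mean of the 9 Ctr libraries, the 24 h libraries stood at 2.01, 0.65 and 1.41, the 36 h libraries at 2.63, 1.12 and 2.12 and the 72 h libraries at 2.56, 2.56 and 2.00. Those of 6 and 12 h lay between 0.16 and 0.59, and the Ctr libraries between -0.31 and 0.42.

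A list of 47 other interferon-stimulated genes had a like order, with SE 24 h replicate 2 the lowest in 35, SE 36 h replicate 2 in 43 and SE 72 h replicate 3 in 39. Of 9 microglia markers SE 24 h replicate 2 was the lowest in 6 and SE 36 h replicate 2 in 7, but at 72 h replicate 1 was the lowest in all 9 and replicate 3 the highest in 6. Of 5 astrocyte markers SE 24 h replicate 2 was the lowest in 0, SE 36 h replicate 2 in 5 and SE 72 h replicate 3 in 2. Of 5 endothelial markers these libraries were the lowest in 4, 3 and 3. At 24 h the median log2FC was 1.38 with 32 genes called when replicate 1 was left out, and 2.02 with 39 called when replicate 2 was. At 36 h these values were 2.02 with 36 called and 2.76 with 40 called.

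**Figure D3:**
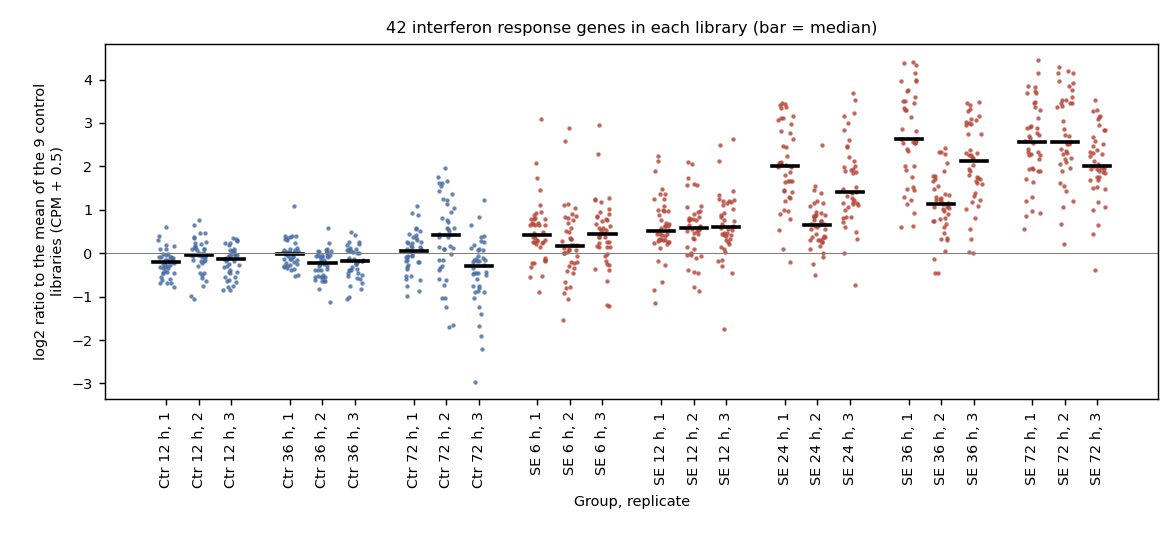
Log2 ratio of each of the 42 genes (points) to its mean over the 9 Ctr libraries, computed on CPM plus 0.5, in each of the 24 libraries along the x axis, with a bar at the median. The medians of SE 24 h replicate 2 (0.65) and SE 36 h replicate 2 (1.12) lie below those of the other libraries of their groups, and the Ctr medians between -0.31 and 0.42.

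Whether the effect itself grew with time was tested as a difference between time-matched effects, each with its own Ctr group. From 12 to 36 h the effect grew in 4 of the 42 genes (1.98% of all genes grew). They were Ifih1 by 2.11 ± 0.54 (adjusted p = 0.036), Ifit2 by 2.07 ± 0.46 (adjusted p = 0.0207), Herc6 by 1.75 ± 0.43 (adjusted p = 0.0300) and Lgals3bp by 1.74 ± 0.41 (adjusted p = 0.0256). The median difference was 1.56. This count moved with single libraries: it was 16 with SE 36 h replicate 2 left out and 7 with Ctr 72 h replicate 2 left out, and it fell to 0 when any of Ctr 12 h replicate 2, SE 12 h replicate 3, Ctr 36 h replicate 2 and SE 36 h replicate 1 was missing. It was 1 when SE 12 h replicate 2, Ctr 36 h replicate 3 or SE 36 h replicate 3 was missing, and 2 when Ctr 36 h replicate 1 was.

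From 12 to 72 h the effect grew in 15 genes (12.4% of all genes grew), with a median difference of 1.69. The largest were Oas2 with 4.59 ± 1.39 (adjusted p = 0.0233), Irf7 with 3.30 ± 0.96 (adjusted p = 0.0191), Isg15 with 3.15 ± 0.95 (adjusted p = 0.0223), Bst2 with 2.98 ± 0.68 (adjusted p = 0.00457) and Lgals3bp with 2.59 ± 0.42 (adjusted p = 0.000377). Without Ctr 72 h replicate 2 the calls of Oas2 (2.85, adjusted p = 0.13), Irf7 (2.21, adjusted p = 0.105) and Isg15 (2.16, adjusted p = 0.106) were lost, while 15 genes in all were still called. Between 36 and 72 h 0 genes differed in their effect by edgeR (4.9% of all genes did; 2 of the 42 and 4063 of all 18153 genes at an unadjusted p under 0.05, 0 by DESeq2 and 0 by limma-voom). Of the comparisons among Ctr groups, 0 of the 42 genes were called by edgeR in all 3, with 0, 4 and 5 at an unadjusted p under 0.05 for 36 against 12 h, 72 against 36 h and 72 against 12 h. There were 653, 3896 and 3509 such genes among all 18153, and DESeq2 called 1 of the 42 in each of the last 2 comparisons. Over all genes 0.0%, 2.04% and 1.03% were called there.

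**Figure D4:**
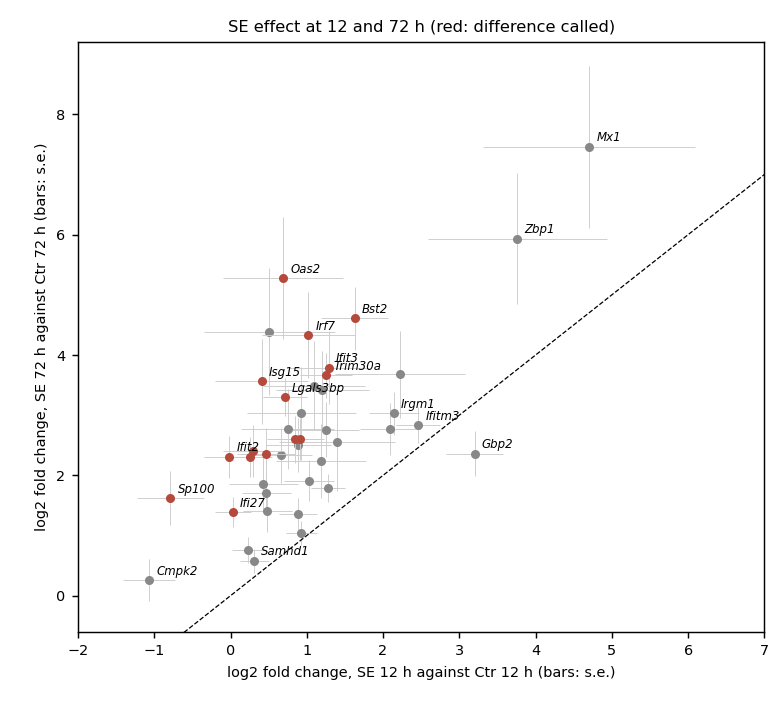
Log2 fold change of each of the 42 genes at 12 h (x axis) and at 72 h (y axis), each against its own Ctr group, with bars of 1 standard error and a dashed line of equality. Red marks the 15 genes whose difference was called, all of them above the line, and Gbp2 lies below it.

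Upstream of these genes, the type I receptor subunit Ifnar1 had log2FC of 0.18 ± 0.13, 0.32 ± 0.13 and 0.51 ± 0.13 at 12, 36 and 72 h and was never called, and Ifnar2 was higher at 36 h with 0.70 ± 0.16 (adjusted p = 0.00216) and at 72 h with 0.84 ± 0.17 (adjusted p = 0.000768). Of 7 genes listed for the receptors and their kinases, 1, 1, 1, 2 and 3 were higher and 2, 0, 0, 0 and 0 lower at the 5 times. Over all genes 15.8%, 13.9%, 12.7% and 15.3% were higher and 6.21%, 11.4%, 8.92% and 4.21% lower at 6, 12, 36 and 72 h. At 24 h 24.2% were called in either direction. The 1 of 7 higher at 6 and 12 h was close to the share of all genes. The same shares apply to the counts of the lists that follow. Ifngr1, a subunit of the interferon-gamma receptor, was called at 72 h with 1.32 ± 0.18 (adjusted p = 1.98e-05). Jak2, the kinase of the interferon-gamma and cytokine receptors, was called at all 5 times with 0.80 to 1.18, while Jak1 was at none. Genes for the interferons themselves were not analysed here.

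Among 13 genes for sensors and factors that induce interferon, 3, 4, 6, 6 and 11 were higher and 0, 1, 1, 0 and 0 lower. Rigi, which detects short double-stranded RNA, went from 0.34 ± 0.24 at 6 h to 2.40 ± 0.30 (adjusted p = 3.94e-06) at 36 h. Tlr7, the endosomal sensor of single-stranded RNA, and Irf8, a factor of myeloid cells, were called at all 5 times and reached 3.85 ± 0.34 and 3.93 ± 0.28 at 72 h. Sting1, the adaptor of DNA sensing, was called from 24 h on with 1.08 to 1.35, and Cgas at 72 h with 2.09 ± 0.40. The Cgas libraries overlapped there, with 4.79, 5.82 and 5.21 CPM in SE 72 h and 2.62, 0 and 4.87 CPM in Ctr 72 h. The 0 was that of Ctr 72 h replicate 2. Of 6 tested negative regulators 4, 4, 4, 3 and 2 were higher and 0, 1, 0, 0 and 0 lower. Socs3 was called at all 5 times with 4.68 to 6.49, while Socs1, which binds the JAK kinases, was called up to 36 h with 1.94 to 2.61 and had 0.40 ± 0.67 at 72 h. Socs1 stood at 1.775, 1.335 and 1.754 CPM in SE 72 h and at 0.169, 4.093 and 1.875 in Ctr 72 h, the highest being replicate 2. The Ctr 12 and 36 h libraries had at most 1.106 CPM, so the 72 h value rests on uneven controls.

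**Figure D5:**
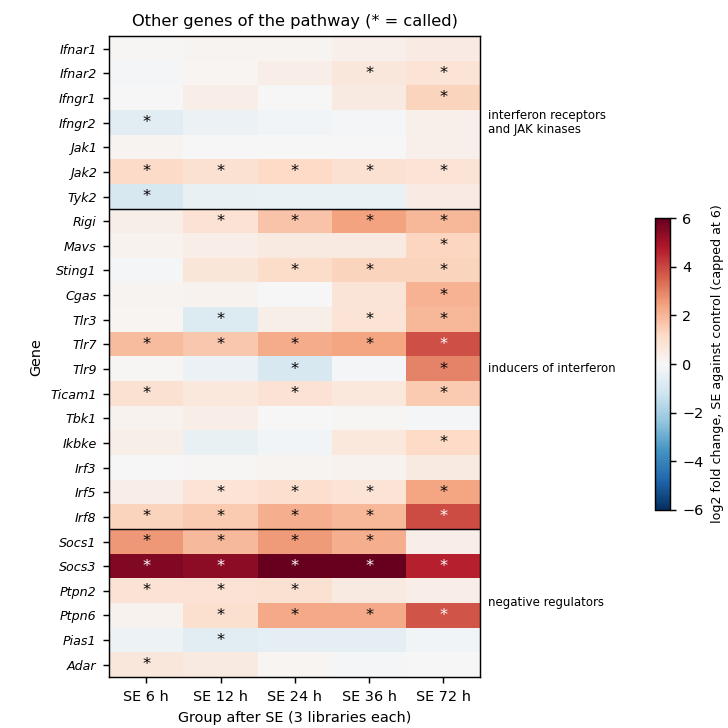
Log2 fold change at the 5 times after SE of the genes listed as receptors and JAK kinases, as inducers of interferon and as negative regulators (blocks of rows), with times in columns, an asterisk where a gene was called and the colour capped at 6, on the same comparisons as for the 42 genes. Socs3 is the highest at every time, and Ifnar1 stays within 0.05 to 0.51.

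The 47 other interferon-stimulated genes that were tested, of 50 listed, had medians of 0.67, 0.83, 1.22, 2.06 and 2.85 at the 5 times, with 15, 17, 31, 40 and 39 higher and 2, 1, 0, 0 and 0 lower. The first pattern of the response element stood in 17 of these 47 promoters (36.2%).

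Markers of other cells moved over the same hours. The 9 microglia markers summed to 365 to 448 CPM in the Ctr libraries and after SE to 261 to 304 (6 h), 296 to 417 (12 h), 538 to 733 (24 h), 740 to 841 (36 h) and 1579 to 2255 (72 h). Of these markers 0, 1, 4, 6 and 9 were higher and 5, 2, 1, 1 and 0 lower at the 5 times. The 5 astrocyte markers summed to 1313 to 1724 CPM in Ctr libraries, and after SE to 2612 to 3357 (6 h), 3358 to 5280 (12 h), 3911 to 5489 (24 h), 5198 to 7439 (36 h) and 9442 to 11130 (72 h). Of these 1, 2, 2, 3 and 3 were higher and 0, 1, 2, 2 and 0 lower; Gfap was higher at every time, with log2FC from 2.57 to 5.0, and Gja1 was lower at 12, 24 and 36 h. The 5 endothelial markers summed to 143 to 200 CPM in Ctr and 235 to 381 after SE, with 3, 3, 4, 2 and 2 higher and 1, 0, 0, 0 and 0 lower, Tek being lower at 6 h (-0.75). The 4 of 8 infiltrating leukocyte markers in the table summed to 0.189 to 16.7 CPM in Ctr and 0.709 to 23.9 after SE. The 16.7 CPM was that of Ctr 72 h replicate 2, and the next Ctr library, Ctr 72 h replicate 3, had 4.499. SE 72 h replicates 1, 2 and 3 had 23.9, 12.8 and 2.24 CPM. The 4 neuronal markers went from 4425 to 6162 CPM in Ctr libraries to 2856 to 3034 at 72 h. The part of these shifts in the values of the interferon response genes was not tested.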

How the data were processed

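The authors trimmed reads with Trim Galore 0.6.6, aligned them with STAR 2.7.8a to GRCm39 with GENCODE M26, sorted them with SAMtools 1.10 and deposited raw read counts per gene from HTSeq 0.13.5, counted without regard to strand. Of 18647 genes, 18552 were matched to symbols and positions in a later GENCODE release (M39, same build) and 95 were not. Promoter sequences come from that annotation.

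With edgeR 4.0.16 in R 4.3.3, filterByExpr over the 8 groups left 18153 genes. All 24 libraries entered 1 model, with TMM scaling, the group as factor and 1 RUVr factor, and the quasi-likelihood test was adjusted over all 18153 genes (Benjamini-Hochberg). Called genes had an adjusted p not above 0.05 and a log2FC of 0.66 or more in size, and of 1 or more between SE times. The scripts were tested on simulated data for SE 12 h against Ctr 12 h. Of the genes changed by a log2FC of 0.8 in size, 27 of 67 were called in the right direction. At 1.5 it was 40 of 67 and at 3 it was 58 of 66, so real changes can go uncalled. There were 7 calls of unchanged genes among 17718 tested. Alternatives were DESeq2 1.42.0, limma-voom (limma 3.58.1), other normalizations and filters, no RUVr factor, the compared groups only, the label range or replicate number as a factor, counts thinned to the smallest library, each library left out, and, chosen after values had been seen, 36 h within 1 label range. The fits on label range left out the RUVr factor.

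The 42 genes and all lists were chosen with earlier results of these data known. Values of every library are given for Irf1, Irf7, Irf9 and Stat2, the 5 largest increases and all decreases at 12, 36 and 72 h, and the genes called between SE times or between effects (up to 5 per comparison); other genes were given by count and range, and 1 pathway gene is not reported here. Where no control library had more than 3 counts, the ratio of summed counts, scaled to library size, is given with an exact 95% interval, which covers counting error only. Library totals were 2663936 to 30133731 counts.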

Additional observations from a re-analysis of the deposited data

Results flagged for a closer look

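The results below were flagged because the effect of SE differed between 2 times by the test of that difference (edgeR, adjusted over all genes, 3 libraries per group). From 12 to 36 h the log2FC grew by 2.11 for Ifih1, 2.07 for Ifit2, 1.75 for Herc6 and 1.74 for Lgals3bp.

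From 12 to 72 h it grew most for Oas2 (4.59), Irf7 (3.30), Isg15 (3.15), Bst2 (2.98) and Lgals3bp (2.59). Effectors that followed were Ifit3 with 2.50, Trim30a with 2.41, Sp100 with 2.41, Ifit2 with 2.33, Xaf1 with 2.11 and Herc6 with 2.06. The smallest called were Ifih1 with 1.89, Parp14 with 1.76, Parp9 with 1.70 and Ifi27 with 1.36. Xaf1 is a partner of the apoptosis inhibitor XIAP, and Ifi27 is a small membrane protein. All 19 differences had the same sign. All 15 of the 12 to 72 h differences use Ctr 72 h, the group that holds the library Ctr 72 h replicate 2 that stood apart; without it Oas2, Irf7, Isg15, Ifit3 and Parp9 were not called, Ifit3 with 2.39 (adjusted p = 0.0613) and Parp9 with 1.40 (adjusted p = 0.0594). Ifit3 was not called in 7 fits that left out 1 library (adjusted p from 0.0513 to 0.0613), and Oas2 was not called either without Ctr 12 h replicate 1 (4.09, adjusted p = 0.0634) or replicate 2 (4.34, adjusted p = 0.0538). Ifih1 was not called without Ctr 12 h replicate 2 (1.43, adjusted p = 0.0749) or Ctr 72 h replicate 1 (1.51, adjusted p = 0.0838), and Parp14 likewise (1.37, adjusted p = 0.0767, and 1.55, adjusted p = 0.0677). The cause of these differences was not tested.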

How the results depend on the processing

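No call changed sign under any alternative. Called by all alternatives that tested them were 6 of 13 genes at 6 h, 6 of 16 at 12 h, 27 of 38 at 24 h, 34 of 40 at 36 h and 19 of 40 at 72 h. With at least 10 counts in every library, which left 16 of the 42 genes, 6, 10, 13, 14 and 14 were called at the 5 times after SE, 2 between SE 24 and 12 h, 7 between the effects at 72 and 12 h, and 1 between Ctr 72 and 36 h. Thinned counts gave 10 at 12 h, 2 between SE 24 and 12 h, 2 between SE 72 and 36 h and 1 between the effects at 36 and 12 h. With the label range in place of the RUVr factor, 8 were called at 6 h and 19 at 72 h. That fit gave 0 between SE 24 and 12 h and 0 between SE 72 and 36 h. Between effects it gave 0 (36 and 12 h) and 3 (72 and 12 h). DESeq2 gave 1 between SE 12 and 6 h, 11 between SE 24 and 12 h, 14 between the effects at 36 and 12 h, 1 between Ctr 72 and 36 h and 1 between Ctr 72 and 12 h. limma-voom gave 1 between SE 24 and 12 h, 4 between SE 72 and 36 h, 0 between the effects at 36 and 12 h and 6 between those at 72 and 12 h. Without the RUVr factor there were 3 between SE 24 and 12 h and 2 between the effects at 36 and 12 h, with library totals alone 7 for the latter. When only the compared groups were fitted there were 0 between SE 24 and 12 h, 0 between SE 72 and 36 h and 3 between Ctr 72 and 36 h. The cause was not tested, except that the count minimum and the smaller fits leave fewer genes or libraries. Within the label range of 109 to 122 at 36 h, 39 were called without the RUVr factor. That range held SE 36 h replicates 1 and 2 and all Ctr 36 h libraries, but not SE 36 h replicate 3.

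The replicate numbers did not pair the samples: 19 of 84 same-numbered pairs correlated above 0.1, and 8 of 24 libraries correlated best with their own number. With the replicate block, the counts were 13, 17, 38, 40 and 40 at the 5 times, 5 between SE 24 and 12 h, 1 between SE 72 and 36 h, 6 between the effects at 36 and 12 h, and 20 between those at 72 and 12 h.

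Leaving out each library in turn, the counts ranged from 9 to 14 (6 h), 11 to 16 (12 h), 32 to 39 (24 h), 36 to 40 (36 h) and 36 to 40 (72 h). Between SE times they ranged from 0 to 0 (12 and 6 h), 0 to 16 (24 and 12 h), 0 to 1 (36 and 24 h) and 0 to 6 (72 and 36 h). Between effects the ranges were 0 to 16 (36 and 12 h), 0 to 1 (72 and 36 h) and 11 to 19 (72 and 12 h), and between Ctr groups 0 to 2 for 72 and 36 h and 0 to 2 for 72 and 12 h. Depth limits genes such as Zbp1, Mx1 and Oas1a, which had at most 3 counts in each control library of some comparisons.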
